A study of Mus musculus with 9 samples.

Results

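The genes of DNA replication and origin licensing were followed in mouse hearts from just before birth to the first week of life. The set held 45 genes, chosen by symbol from a list of replication genes, out of 48820 genes in the expression table, and all 45 were found. By role, 11 act in origin licensing, 8 in helicase activation and origin firing, 9 in the DNA polymerases and primase, 6 in the sliding clamp and its loader, 5 in single-strand binding and flap processing, 4 in nucleotide supply and 2 in chromatin assembly. RNA-seq was performed on hearts of WT C57BL/6J mice without treatment at embryonic day 18.5 (E18.5d), postnatal day 1 (P1d) and postnatal day 7 (P7d), with 3 biological replicates per stage and 9 hearts in all. Expression was given as FPKM, the fragments of a gene scaled to its length in kilobases and to 1e6 mapped fragments, a level that corrects for gene length. The comparison of stages describes how the replication genes changed around birth, and how far they came back by P7d. The genes and the tests were chosen with earlier results of these data known.

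Replication starts at origins that are prepared in advance. The origin recognition complex, CDC6 and CDT1 load the ring-shaped MCM helicase onto DNA before S phase, and geminin blocks CDT1 afterwards so that no origin is licensed again. The kinase CDC7 with its activator DBF4, and CDC45 with the GINS complex, then turn the loaded ring into a moving helicase, on which primase, the polymerases, the clamp PCNA and its loader RFC assemble. Most of these genes are transcribed as cells enter S phase, under E2F factors, and fetal heart muscle cells divide while most of them stop dividing soon after birth. Hearts were measured whole, so that fewer cells in the cycle and less RNA per cell cannot be told apart.

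The letters bound by E2F factors were looked for in the promoters, since these factors are the textbook regulators of this gene set. Promoter sequences of 300 bases, from 250 bases before to 50 after the transcript start, were taken from RefSeq (GRCm38.p6), which matched 37 of the 45 genes in 43 windows. An E2F match was TTTCCCGC, TTTCGCGC, TTTGCCGC or TTTGGCGC on either strand. Such a match was found in 14 of 43 windows of the replication genes (32.6%), against 744 of all 32851 windows (2.26%) 1 of 27 windows of mitosis genes (3.7%) and 11 of 46 windows of other replication genes (23.9%). Median GC content was 61.3% in the windows of the replication genes, 59% in those of mitosis genes and 52.7% in all windows. Of the 30251 windows with at least the lowest GC content of a replication gene window (median 54%), 2.44% held an E2F match. The part of GC content was not tested. Of the helicase subunits, *Mcm2* had a window without a match and *Mcm4* had no window. Other genes without a match included *Pcna*, *Prim1*, *Rrm1* and *Rrm2*. Promoters that hold the letters are given here for helicase loaders, some helicase subunits, a polymerase subunit and the ligase. These genes act at successive steps of replication. The sequences run 5′ to 3′ along the strand of the gene, with the matching letters in capitals.
Cdc6 promoter, chr11:98908002-98908031, plus strand: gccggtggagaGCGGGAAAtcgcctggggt
Cdt1 promoter, chr8:122568036-122568064, plus strand: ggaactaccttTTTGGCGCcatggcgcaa
Mcm3 promoter, chr1:20820275-20820304, minus strand: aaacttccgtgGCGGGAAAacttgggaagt
Mcm5 promoter, chr8:75109345-75109374, plus strand: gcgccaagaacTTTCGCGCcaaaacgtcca
Mcm6 promoter, chr1:128359734-128359763, minus strand: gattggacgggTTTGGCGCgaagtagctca
Mcm7 promoter, chr5:138171849-138171878, minus strand: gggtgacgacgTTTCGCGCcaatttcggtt
Pole2 promoter, chr12:69228162-69228191, minus strand: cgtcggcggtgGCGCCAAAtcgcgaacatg
Lig1 promoter, chr7:13278841-13278870, plus strand: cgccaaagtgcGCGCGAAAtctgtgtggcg
In *Cdc6*, *Mcm3*, *Pole2* and *Lig1* the capitals are the motif read from the other strand. The window of *Mcm5* also holds a second match, which overlaps the one shown and lies on the opposite strand, and the windows of *Mcm3*, *Mcm6* and *Mcm7* hold further matches. The letters TTTGAA, the core of the CHR element known from mitosis genes, stood in 8 of 43 windows of the replication genes (18.6%), 5878 of all windows (17.9%) and 21 of 27 windows of mitosis genes (77.8%). No E2F spelling holds the CHR letters. A match is a description of the letters and not a measured binding site.

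**Figure D1:**
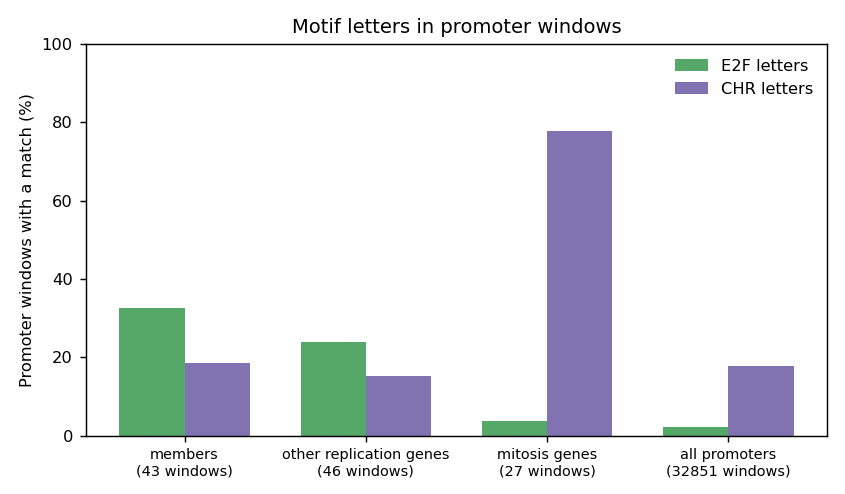
Share of promoter windows (%, vertical axis) that hold the E2F letters (green) or the CHR letters (purple) in the replication genes, other replication genes, mitosis genes and all RefSeq promoters. The E2F letters stood in 32.6% of the windows of the replication genes and 2.26% of all windows, while the CHR letters were near the share of all windows (18.6% against 17.9%).

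Depth was 25.8 to 45.8 times 1e6 fragments per heart, read from the steps between low FPKM values, and the fewest fragments behind a value of a member were 42 (*Gins3*), 58 (*Cdc6*) and 66 (*Orc1*). All 10 cardiomyocyte markers passed the expression filter, with a summed level of 38485 to 41040 FPKM at E18.5d, 41522 to 46195 at P1d and 42780 to 44537 at P7d. Every heart is labelled male, but *Xist*, the RNA of a silenced X chromosome, reached 58.0 to 97.0 FPKM in 4 hearts (E18.5d replicates 1 and 3, P7d replicates 2 and 3) and at most 0.11 FPKM in the other 5. The 3 P1d hearts were all among these 5, so that stage and *Xist* cannot be fully told apart. In 3 hearts the 8 lung markers summed to more than 10 FPKM, namely E18.5d replicates 1 and 2 (91.0 and 252 FPKM) and P1d replicate 1 (493 FPKM). Counts without these hearts are given beside the results. Every E18.5d heart had high *Xist*, lung markers above 10 FPKM or both. Neither way of leaving out hearts therefore leaves an E18.5d heart free of both. The part of these differences in the results was not tested.

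At P1d, nearly the whole replication set was lower than at E18.5d. All 45 genes passed the filter of a mean of 1 FPKM, and 44 of them were lower, 0 higher and 1 (*Gins4*) passed the threshold in neither direction (limma, adjusted p under 0.05 over 13618 genes). No member was higher in this comparison at an unadjusted p under 0.05 either. Of all genes tested, 27.6% were lower and 18.4% higher. In 43 of the 45 genes each P1d heart was below each E18.5d heart, which held for 32.3% of all genes, and in 0 was each P1d heart above (22.1% of all genes). The median change of the members was -1.23 on the scale of log2(FPKM + 1), with a range from -1.98 to -0.13, beside a median of -0.06 over all genes tested. In FPKM the P1d mean was at a median of 37.1% of the E18.5d mean, from 14.4% (*Cdc6*) to 90.6% (*Gins4*). For 30 of the 45 members it was at most 50% of it, a size of fall seen in 6.24% of all genes. Without the 3 hearts with lung markers, 39 members were lower. Without the 4 hearts with *Xist*, which leaves 1 heart each at E18.5d and P7d, 22 were lower and all 45 kept a negative change, with a median of -1.22.

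By P7d the set had come back in part. From P1d to P7d, 31 of the 45 genes rose, 1 (*Gins4*) fell and 13 passed the threshold in neither direction (limma, adjusted p under 0.05), while 15.5% of all genes tested rose and 28.6% fell. Each P7d heart was above each P1d heart in 32 members, against 19.3% of all genes, and below in 1 (*Gins4*), against 34.3%. The median change was 0.63 (-0.20 to 1.36), beside -0.09 over all genes. Compared with E18.5d, 41 members were still lower at P7d, 0 were higher and 4 (*Orc1*, *Mcm3*, *Mcm5* and *Pold1*) passed in neither direction, where 36.9% of all genes were lower and 12.5% higher. In 44 members each P7d heart was below each E18.5d heart, against 45.6% of all genes, and in 0 above, against 16.9%. The P7d means lay at 38.5% (*Gins1*) to 80.0% (*Pola2*) of the E18.5d means, with a median of 61.8%. A fall at P1d, a rise from P1d to P7d and a level still below E18.5d at P7d were all called in 28 members (62.2%) and in 3.99% of all genes tested. The same 3 calls were made in 26 of 30 mitosis genes (86.7%) and in 18 of 42 other replication genes tested (42.9%). The pattern is thus not particular to the 45 members. The 3 comparisons share hearts, so these calls are not independent of each other.

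**Figure D2:**
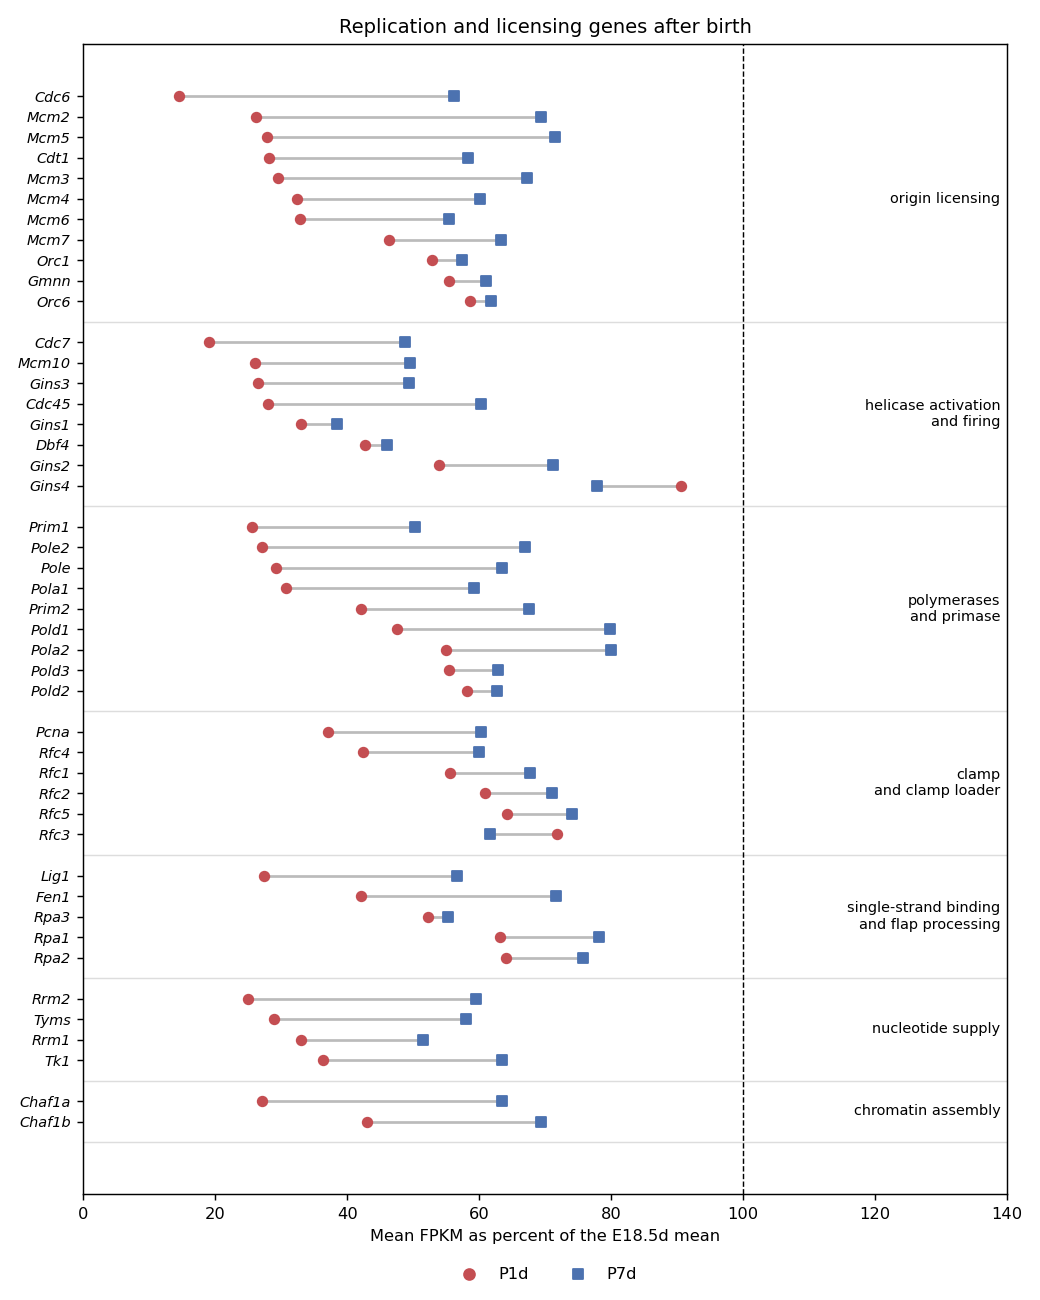
Mean FPKM of each gene at P1d (red circles) and P7d (blue squares) as percent of its E18.5d mean (horizontal axis, dashed line at 100), with genes grouped by role on the vertical axis. P1d means lie between 14.4% and 90.6% of E18.5d, and P7d lies to the right of P1d in all genes but *Gins4* and *Rfc3*.

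The counts at P7d changed more than those at P1d did when hearts were left out. The changes from E18.5d were also smaller at P7d than at P1d (medians -0.64 and -1.23). Leaving out the hearts with *Xist* leaves 1 heart each at E18.5d and P7d, where few calls can be reached. Without the 3 hearts with lung markers, which leaves 1 heart at E18.5d, 27 members rose from P1d to P7d, 18 were below E18.5d at P7d and 9 met all 3 criteria. Without the 4 hearts with *Xist*, 0 members passed limma's threshold as risen and 0 as below E18.5d at P7d (20 and 22 at an unadjusted p under 0.05), while 43 of the 45 changes from P1d to P7d and all 45 changes from E18.5d to P7d kept their direction (medians 0.57 and -0.66). With *Xist* as a covariate and all hearts kept, 42 members were lower at P1d, 28 rose from P1d to P7d, 40 were lower at P7d and 24 met all 3 criteria. The scale of the FPKM columns mattered as well. With median of ratios, which moved the median of all genes for P7d against E18.5d from -0.17 to -0.02, 28 members were below E18.5d at P7d, 36 rose from P1d to P7d and 22 met all 3 criteria. On that scale 2848 of all genes were lower and 2905 higher at P7d than at E18.5d, against 5025 and 1706 as deposited. From P1d to P7d, 2986 of all 13618 genes rose on that scale, against 2112 as deposited. The shares over all genes for the other counts in this paragraph are not given here.

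Among the 11 origin licensing genes, all 11 were lower at P1d than at E18.5d, 8 rose again by P7d and 8 were still lower at P7d than at E18.5d (limma). *Cdc6*, the loader that brings the helicase to the origin recognition complex, had the largest fall of all members. It was at 7.95, 5.22 and 6.29 FPKM in the E18.5d hearts, 0.76, 0.42 and 1.63 FPKM in the P1d hearts and 3.67, 3.50 and 3.77 FPKM in the P7d hearts. The stages did not overlap, and the P7d hearts lay close together between the other stages. The log2 change of *Cdc6* was -1.98 at P1d (SE 0.21, limma, adjusted p = 8.58e-05), 1.31 from P1d to P7d (SE 0.21, adjusted p = 0.00103) and -0.67 at P7d against E18.5d (SE 0.21, adjusted p = 0.0241). The last of these calls was lost under several scalings and filters and when some single hearts were left out. *Cdt1*, its partner in loading, was at 11.4 ± 1.60, 3.22 ± 1.33 and 6.65 ± 0.915 FPKM (SD, n = 3 hearts) in the order E18.5d, P1d and P7d.

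The 6 subunits of the MCM helicase fell together at P1d, and all 6 rose by P7d. *Mcm2* had the largest rise of all members on the scale of log2(FPKM + 1), while in FPKM the ratio of P7d to P1d was larger for *Cdc6* (3.89) than for *Mcm2* (2.65). It went from 40.50, 36.13 and 34.28 FPKM at E18.5d to 7.86, 7.41 and 13.77 FPKM at P1d and 22.45, 26.34 and 28.19 FPKM at P7d. No heart overlapped between stages, and P1d replicate 3 stood above the other P1d hearts. Its log2 change was -1.88 at P1d (SE 0.19, limma, adjusted p = 6.94e-05) and 1.36 from P1d to P7d (SE 0.19, adjusted p = 0.000497). At P7d *Mcm2* was at 69.4% of E18.5d (log2 change -0.51, limma, adjusted p = 0.0487), a call lost when some single hearts were left out.

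*Mcm5* followed *Mcm2* closely. Its levels were 28.19, 26.28 and 23.82 FPKM in E18.5d hearts, 5.36, 6.02 and 10.36 FPKM in P1d hearts and 16.95, 19.15 and 19.84 FPKM in P7d hearts, with a log2 change of 1.3 from P1d to P7d (SE 0.19, limma, adjusted p = 0.000556). *Mcm3* was at 45.55, 49.95 and 46.73 FPKM, then 8.61, 13.64 and 19.77 FPKM and then 31.10, 28.30 and 36.20 FPKM. Both genes passed the threshold in the fall and in the rise. At P7d their log2 changes from E18.5d of -0.46 and -0.56 did not pass (limma, adjusted p = 0.063 and 0.0621), although each P7d heart was below each E18.5d heart.

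*Mcm4* and *Mcm6* fell to about the same share of E18.5d, 32.4% and 32.9%. *Mcm4* was at 25.42, 23.80 and 22.32 FPKM in E18.5d hearts, 6.29, 6.18 and 10.68 FPKM in P1d hearts and 14.01, 13.59 and 15.37 FPKM in P7d hearts. *Mcm6* was at 62.25, 54.84 and 52.14 FPKM, 14.30, 17.02 and 24.30 FPKM and 30.53, 30.31 and 32.91 FPKM. *Mcm7* had the smallest fall of the 6 subunits, from 57.11, 55.92 and 47.68 FPKM at E18.5d to 22.48, 23.99 and 28.04 FPKM at P1d, and was at 30.97, 33.80 and 37.09 FPKM at P7d. The log2 change of *Mcm7* at P1d was -1.08 (SE 0.10, limma, adjusted p = 4.66e-05). On *Mcm7*, 12.6% of the exon bases are shared with other genes (among them *Ap4m1* on the opposite strand), and the library kit does not mark strand.

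As FPKM corrects for length, the subunits can be set beside each other within a heart, though their levels depend on the gene lengths used. Their summed level was 244 ± 16.2 FPKM in the E18.5d hearts, 82.0 ± 22.1 FPKM in the P1d hearts and 156 ± 12.3 FPKM in the P7d hearts (SD, n = 3). The share of *Mcm7* in this sum was 21.9 ± 0.830%, 31.1 ± 4.34% and 21.8 ± 0.554% in the same order. The share of *Mcm2* was 15.1 ± 0.502%, 11.7 ± 1.5% and 16.5 ± 1.02%. The share of *Mcm7* was thus above that of the other stages in each P1d heart (26.2% to 34.6%), and that of *Mcm2* below. No test was made of the shares, which were looked at after the values were seen. The part of the exon bases that *Mcm7* shares with other genes was not tested either.

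**Figure D3:**
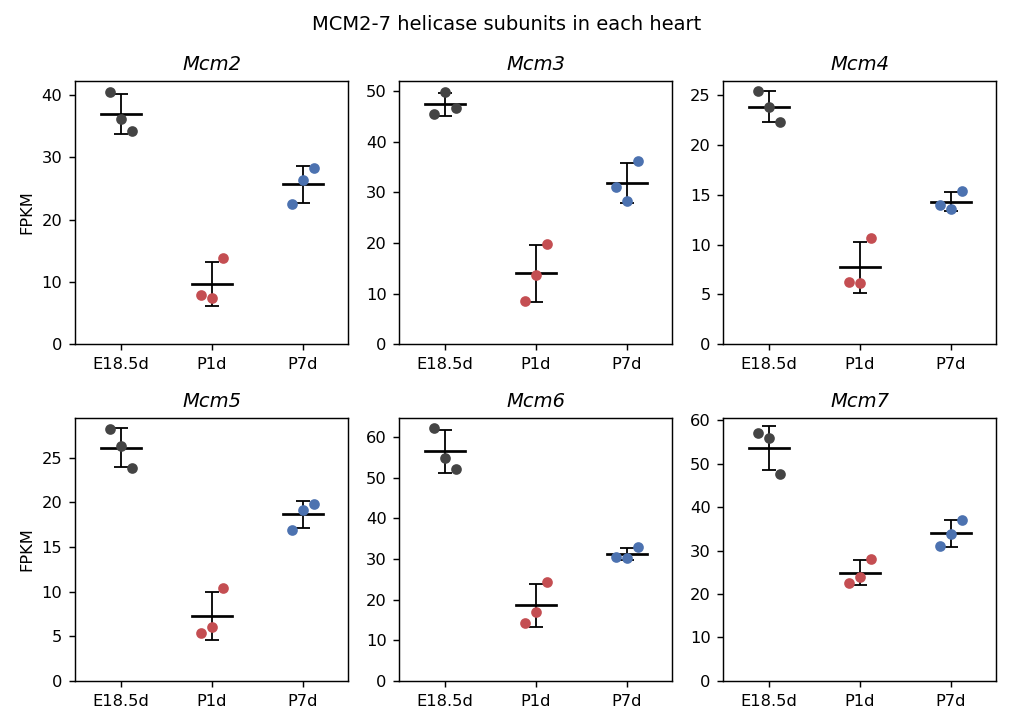
FPKM (vertical axis, from 0) of the 6 MCM subunits in each heart (points) at E18.5d, P1d and P7d, with the mean (line) and SD (whiskers, n = 3). In each panel the 3 P1d hearts are lowest and the P7d hearts lie between P1d and E18.5d.

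The other 3 licensing genes, *Gmnn*, *Orc6* and *Orc1*, fell at P1d and had no call from P1d to P7d. *Gmnn*, which encodes geminin, the inhibitor of CDT1, was named after its values were seen. It was at 36.05, 37.02 and 34.63 FPKM in E18.5d hearts, 21.12, 20.82 and 17.69 FPKM in P1d hearts and 23.40, 20.98 and 21.44 FPKM in P7d hearts. Its fall at P1d passed (log2 change -0.83, SE 0.08, limma, adjusted p = 4.45e-05), and its change of 0.14 from P1d to P7d did not (SE 0.08, adjusted p = 0.175). Within a heart, *Cdt1* was at 0.280 to 0.358 of *Gmnn* at E18.5d, 0.110 to 0.269 at P1d and 0.263 to 0.360 at P7d, so that the P1d ratios lay below all E18.5d ratios and overlapped with those at P7d. *Orc6*, a subunit of the origin recognition complex, fell from 17.0 ± 2.75 to 9.95 ± 0.821 FPKM and was at 10.5 ± 1.11 FPKM at P7d. *Orc1*, the subunit whose level changes with the cell cycle, was at 1.98 ± 0.394, 1.04 ± 0.491 and 1.13 ± 0.341 FPKM. Its fall (log2 change -0.56, limma, adjusted p = 0.0367) was lost under some alternatives, and 10.8% of its exon bases are shared with a gene on the opposite strand.

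Of the 8 genes of helicase activation and firing, 7 fell at P1d, 5 rose from P1d to P7d and all 8 stayed below E18.5d at P7d (limma). *Cdc7*, the kinase that acts on the loaded helicase, had one of the largest falls. Its levels were 7.36, 7.54 and 6.61 FPKM in E18.5d hearts, 1.47, 1.03 and 1.60 FPKM in P1d hearts and 3.38, 3.31 and 3.8 FPKM in P7d hearts. The hearts of the 3 stages were well apart, with a log2 change of -1.79 at P1d (SE 0.11, limma, adjusted p = 4.12e-06) and 0.93 from P1d to P7d (SE 0.11, adjusted p = 0.000194).

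*Dbf4*, the activating subunit of CDC7, fell as well but did not pass as risen by P7d. It was named after its values were seen, with 11.72, 12.85 and 12.15 FPKM in E18.5d hearts, 4.31, 4.97 and 6.39 FPKM in P1d hearts and 5.31, 4.97 and 6.62 FPKM in P7d hearts. The P1d and P7d hearts overlapped (log2 change 0.10, SE 0.13, limma, adjusted p = 0.569). *Cdc7* was at 0.544 to 0.628 of *Dbf4* within a heart at E18.5d, 0.207 to 0.341 at P1d and 0.574 to 0.666 at P7d. The P1d ratios lay apart from those of both other stages, which was not tested as the pair was chosen for its values.

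*Cdc45*, the helicase cofactor that is added at firing, returned more. It was at 15.64, 13.58 and 13.73 FPKM in E18.5d hearts, 3.96, 2.48 and 5.56 FPKM in P1d hearts and 7.72, 9.21 and 8.99 FPKM in P7d hearts. Its log2 change was -1.66 at P1d (SE 0.19, limma, adjusted p = 0.000136) and 0.99 from P1d to P7d (SE 0.19, adjusted p = 0.00273). *Mcm10*, which helps to start the helicase, was at 8.20 ± 0.274, 2.14 ± 1.03 and 4.06 ± 0.237 FPKM.

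The 4 GINS subunits, which form 1 complex, had unequal changes. *Gins4* (chromosome 8, 23226616 to 23237659 of GRCm38, minus strand) was the member nearest to 0 at P1d and had the smallest change of all 45 there. It was at 16.88, 16.91 and 15.55 FPKM in E18.5d hearts, 14.10, 15.90 and 14.69 FPKM in P1d hearts and 13.16, 12.40 and 12.89 FPKM in P7d hearts. The E18.5d and P1d hearts overlapped, and the P7d hearts were below all others. The log2 change was -0.13 at P1d (SE 0.07, limma, adjusted p = 0.121), -0.20 from P1d to P7d (SE 0.07, adjusted p = 0.0327) and -0.34 at P7d against E18.5d (SE 0.07, adjusted p = 0.00249). The call from P1d to P7d was lost under each rescaling of the columns, and that at P7d against E18.5d with median of ratios.

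The other 3 GINS genes fell at P1d. *Gins1* was at 9.52 ± 0.584, 3.14 ± 0.692 and 3.66 ± 0.136 FPKM, which was the lowest P7d share of all members (38.5% of E18.5d). Its change of 0.19 from P1d to P7d did not pass (SE 0.11, limma, adjusted p = 0.216). *Gins3* was at 3.50 ± 0.415, 0.923 ± 0.272 and 1.73 ± 0.217 FPKM, and *Gins2* at 9.93 ± 1.26, 5.36 ± 0.423 and 7.07 ± 0.360 FPKM, and both rose from P1d to P7d, calls that were lost without the hearts with lung markers. On *Gins2*, 67.3% of the exon bases are shared with *Gse1* on the opposite strand, so that its values are uncertain. Within a heart *Gins4* was at 1.66 to 1.85 times *Gins1* at E18.5d, 3.79 to 5.62 times at P1d and 3.45 to 3.59 times at P7d.

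**Figure D4:**
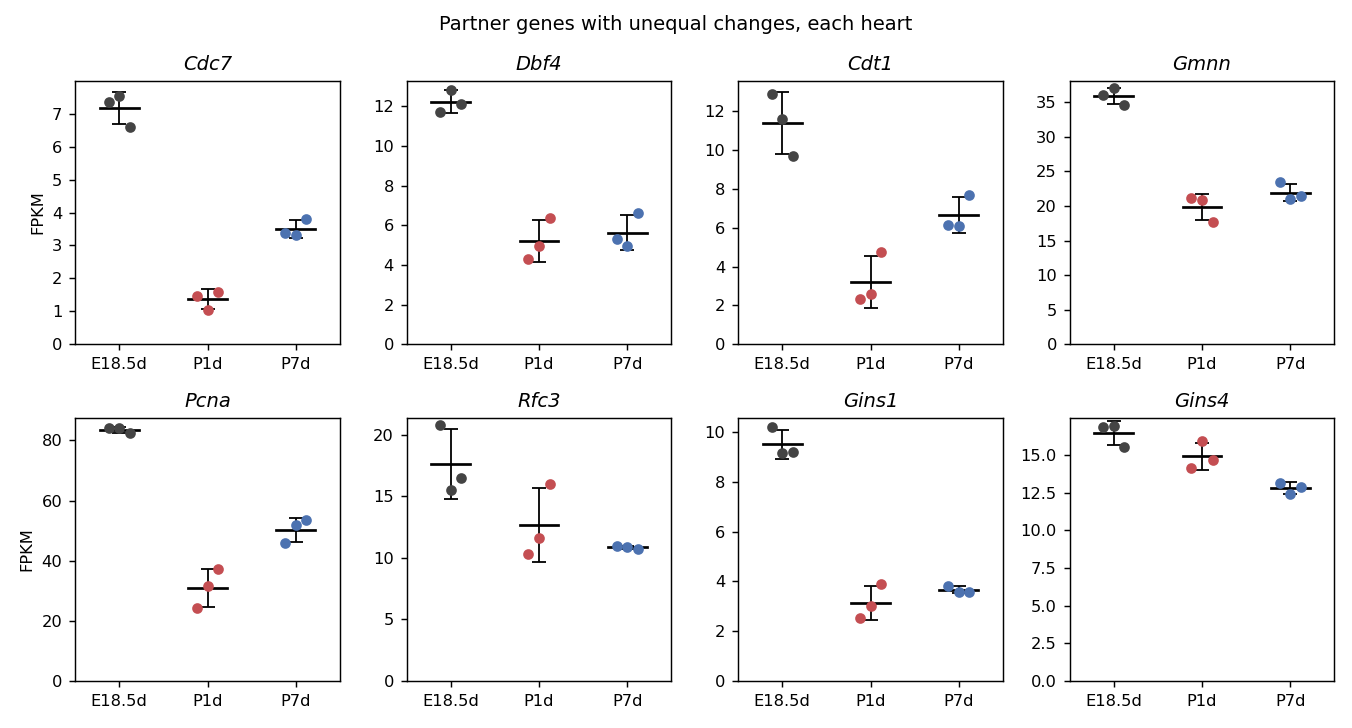
FPKM (vertical axis, from 0) of 4 pairs of genes that act together, in each heart (points) with the mean (line) and SD (whiskers, n = 3) at E18.5d, P1d and P7d. The pairs were chosen for their unequal changes. *Cdc7*, *Cdt1* and *Pcna* rise from P1d to P7d without overlap of hearts, whereas *Dbf4*, *Gmnn*, *Rfc3* and *Gins1* overlap between P1d and P7d, and *Gins4* overlaps between E18.5d and P1d.

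All 9 polymerase and primase genes fell at P1d, 7 rose from P1d to P7d and 8 were still lower at P7d than at E18.5d (limma). *Prim1*, the catalytic subunit of primase that lays down the RNA primer, was at 20.30, 19.89 and 19.63 FPKM in E18.5d hearts, 3.86, 5.36 and 6.11 FPKM in P1d hearts and 9.05, 10.95 and 10.12 FPKM in P7d hearts. The E18.5d hearts were nearly equal and far above the others (log2 change at P1d -1.79, SE 0.13, limma, adjusted p = 8.92e-06). From P1d to P7d *Prim1* rose by 0.87 (SE 0.13, limma, adjusted p = 0.000649). *Pole*, the catalytic subunit of the leading strand polymerase, was at 16.11, 12.68 and 14.98 FPKM, 3.59, 4.33 and 4.85 FPKM and 8.76, 8.90 and 10.10 FPKM, also with no overlap. Its log2 change was -1.57 at P1d (SE 0.11, limma, adjusted p = 9.42e-06) and 0.97 from P1d to P7d (SE 0.11, adjusted p = 0.000189).

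Among the members, the genes of the lagging strand polymerase delta kept more of their E18.5d level at P1d than *Pola1*, *Pole* and *Pole2*. This difference was not tested. Of genes outside the set, *Pole3* and *Pole4* of epsilon were at 94.5% and 64.1% of E18.5d at P1d, and *Pold4* of delta at 163%. *Pole2*, a subunit of epsilon, was at 27.1% of E18.5d at P1d and *Pola1*, the catalytic subunit of alpha, at 30.8%, while *Pold1*, *Pold2* and *Pold3* of delta were at 47.5%, 58.1% and 55.4%. *Pold2* (log2 change 0.11) and *Pold3* (0.17) were the polymerase genes with no call from P1d to P7d (limma, adjusted p = 0.384 and 0.175). *Pold1* rose by 0.68 from P1d to P7d (SE 0.12, limma, adjusted p = 0.00163) and its hearts overlapped between P7d and E18.5d. *Pola2* and *Prim2*, the accessory subunits of the polymerase alpha and primase complex, were at 55% and 42.0% of E18.5d at P1d and at 80.0% and 67.6% at P7d. Within a heart *Pole* was at 0.738 to 1.04 times *Pold1* at E18.5d, 0.398 to 0.642 at P1d and 0.650 to 0.712 at P7d, with no test of the difference. *Pole2* was at 0.428 to 0.546 of *Pole*, 0.402 to 0.505 and 0.476 to 0.521 in the same order, with overlap between all stages.

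The clamp and clamp loader genes all fell at P1d (6 of 6), and 2 of the 6 rose from P1d to P7d (limma). *Pcna*, the sliding clamp that holds the polymerase on DNA, had the highest level of all members at E18.5d. It was at 84.12, 84.07 and 82.32 FPKM in E18.5d hearts, 24.38, 31.42 and 37.10 FPKM in P1d hearts and 45.79, 51.73 and 53.38 FPKM in P7d hearts. The 3 stages did not overlap (log2 change -1.42 at P1d, SE 0.13, limma, adjusted p = 3.29e-05, and 0.70 from P1d to P7d, SE 0.13, adjusted p = 0.00204). The processed pseudogenes of *Pcna* in the table were at 0 to 0.68 FPKM.

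Of the loader, *Rfc4* changed most. It was at 18.14, 16.64 and 18.02 FPKM in E18.5d hearts, 6.07, 7.14 and 9.18 FPKM in P1d hearts and 10.68, 10.18 and 10.84 FPKM in P7d hearts, with a log2 change of -1.15 at P1d (SE 0.12, limma, adjusted p = 6.64e-05) and 0.47 from P1d to P7d (SE 0.12, adjusted p = 0.0101), a rise whose call was lost with *Xist* as a covariate. On *Rfc4*, 12.7% of the exon bases are shared with *Eif4a2* on the opposite strand. *Rfc3*, named after its values were seen, was at 20.83, 15.53 and 16.49 FPKM, 10.30, 11.60 and 16.03 FPKM and 10.97, 10.86 and 10.74 FPKM. Its P1d hearts were spread widely and overlapped with both other stages, and its call at P1d (log2 change -0.46, SE 0.15, limma, adjusted p = 0.0302) was lost under some alternatives. The loader subunits *Rfc1*, *Rfc2* and *Rfc5* were at 55.6%, 60.9% and 64.2% of E18.5d at P1d and had no call from P1d to P7d. Genes on the opposite strand share 15.1% of the exon bases of *Rfc2* and 10.7% of those of *Rfc5*. *Rfc3* was at 0.185 to 0.248 of *Pcna* within a heart at E18.5d, 0.369 to 0.432 at P1d and 0.201 to 0.240 at P7d.

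The 5 genes of single-strand binding and flap processing all fell at P1d, 3 rose by P7d and all 5 stayed below E18.5d at P7d (limma). *Lig1*, the ligase that seals Okazaki fragments, was at 23.15, 22.91 and 23.29 FPKM in E18.5d hearts, 4.86, 6.10 and 8.03 FPKM in P1d hearts and 11.60, 12.75 and 14.95 FPKM in P7d hearts. Its stages were clearly apart, with a log2 change of -1.74 at P1d (SE 0.14, limma, adjusted p = 2.07e-05) and 0.96 from P1d to P7d (SE 0.14, adjusted p = 0.000709). *Fen1*, the nuclease that trims the flaps, was at 11.61, 13.02 and 11.51 FPKM, 4.52, 4.56 and 6.12 FPKM and 7.95, 8.57 and 9.35 FPKM, and passed in all 3 comparisons, of which P7d against E18.5d was lost under some rescalings and without the hearts with lung markers. On *Fen1*, 84.2% of the exon bases are shared with genes on the opposite strand (*Gm10143* and *Tmem258*), so that its values are uncertain. At P1d the 3 subunits of the single-strand binding protein RPA were nearer to E18.5d than *Lig1* and *Fen1*, while at P7d *Rpa3* was the lowest of the 5 (55.3%). *Rpa1*, *Rpa2* and *Rpa3* were at 63.2%, 64.0% and 52.3% of E18.5d at P1d, and of these *Rpa1* rose from P1d to P7d (log2 change 0.30, SE 0.08, limma, adjusted p = 0.0111).

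All 4 genes of nucleotide supply fell at P1d, rose by P7d and were still lower at P7d than at E18.5d (limma). *Rrm2*, the regulatory subunit of ribonucleotide reductase that is made in S phase, was at 71.59, 64.00 and 67.91 FPKM in E18.5d hearts, 12.11, 17.64 and 21.19 FPKM in P1d hearts and 38.50, 37.74 and 44.99 FPKM in P7d hearts. The fall was large on the log2 scale (log2 change -1.97, SE 0.16, limma, adjusted p = 2.13e-05), followed by a rise of 1.23 (SE 0.16, adjusted p = 0.000369). *Rrm1*, the large subunit of the same enzyme, was at 73.1 ± 4.30, 24.2 ± 4.43 and 37.7 ± 2.54 FPKM. *Rrm2* was at 0.919 to 0.945 of *Rrm1* within a heart at E18.5d, 0.579 to 0.788 at P1d and 1.05 to 1.11 at P7d, with no overlap between the stages and no test. *Tyms*, the thymidylate synthase, was at 22.40, 16.54 and 19.05 FPKM, 5.76, 4.13 and 6.86 FPKM and 8.53, 12.84 and 12.23 FPKM (log2 change -1.64 at P1d, SE 0.19, limma, adjusted p = 0.000128). *Tk1*, the thymidine kinase of the salvage route, was at 28.6 ± 1.46, 10.4 ± 1.41 and 18.1 ± 0.704 FPKM.

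The genes of the chromatin assembly factor CAF-1, which places histones behind the fork, fell and rose as well. *Chaf1a*, its large subunit, was at 9.09, 9.08 and 8.15 FPKM in E18.5d hearts, 2.17, 2.21 and 2.74 FPKM in P1d hearts and 5.32, 4.97 and 6.40 FPKM in P7d hearts. No heart overlapped between stages (log2 change -1.54 at P1d, SE 0.10, limma, adjusted p = 6.88e-06, and 0.96 from P1d to P7d, SE 0.10, adjusted p = 0.000136). On *Chaf1a*, 52.5% of the exon bases are shared with *Ubxn6* on the opposite strand, so that its values are uncertain. *Chaf1b* was at 11.3 ± 1.71, 4.85 ± 1.26 and 7.81 ± 0.166 FPKM.

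Median changes of the groups at P1d ranged from -1.60 (nucleotide supply) and -1.58 (origin licensing) to -0.74 (clamp and clamp loader). From P1d to P7d the group medians were 0.85 for origin licensing, 0.83 for nucleotide supply, 0.79 for chromatin assembly, 0.68 for polymerases and primase, 0.43 for helicase activation and firing, 0.30 for single-strand binding and flap processing and 0.24 for the clamp and its loader. These differences between groups are a description and were not tested. Members with an E2F match in their promoter (14 genes) had a median change of -1.41 at P1d and 0.73 from P1d to P7d, and the 23 matched members without it -1.15 and 0.63. Of these, 8 of 14 and 16 of 23 met all 3 criteria.

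To place each heart, the values of log2(FPKM + 1) of the 45 genes, taken relative to the mean of each gene in all 9 hearts, were averaged. The average was 0.61 ± 0.07 in E18.5d hearts, -0.60 ± 0.20 in P1d hearts and -0.01 ± 0.07 in P7d hearts (SD, n = 3). The P1d hearts were at -0.76, -0.67 and -0.38, so that P1d replicate 3 was the highest, and it was the highest P1d heart in 36 of the 45 members against 31.8% of all genes tested. Without P1d replicate 3, 44 members were lower at P1d, 34 rose from P1d to P7d and 33 met all 3 criteria.

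**Figure D5:**
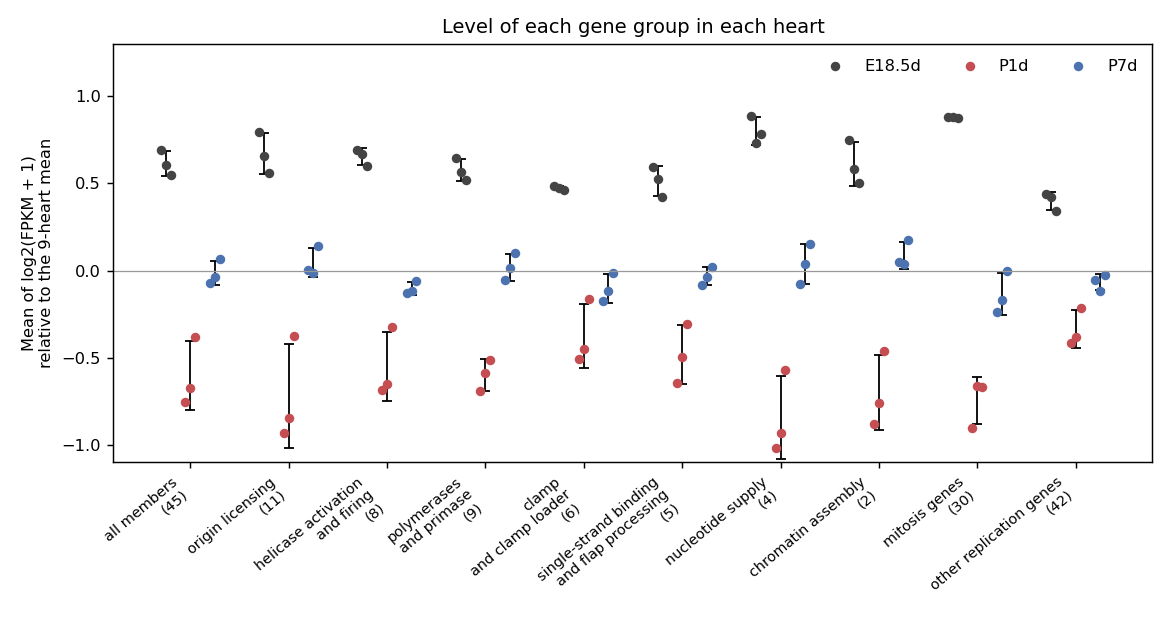
Average log2(FPKM + 1) of the genes in each group, each gene relative to its 9-heart mean (vertical axis), in each heart (points) with mean ± SD (whiskers, n = 3) at E18.5d, P1d and P7d. For all 45 members the hearts are at 0.55 to 0.69 at E18.5d, -0.76 to -0.38 at P1d and -0.07 to 0.07 at P7d.

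Another 43 genes with roles in replication, fork protection and histone supply were followed as well. Of 42 that passed the filter, 32 were lower and 3 higher at P1d (median log2 change -0.76, limma), 21 rose and 6 fell from P1d to P7d (0.27) and 31 were lower and 0 higher, also at an unadjusted p under 0.05, at P7d against E18.5d (-0.46). The largest changes at P1d were those of *Uhrf1*, which maintains DNA methylation behind the fork (35.9 to 7.63 FPKM, log2 change -2.11), *Clspn*, a fork checkpoint gene (8.78 to 1.42 FPKM, -2.03), *Asf1b*, a histone chaperone (15.6 to 3.33 FPKM, -1.98), and *Timeless*, a fork protection gene (7.61 to 1.90 FPKM, -1.61). The 3 that rose at P1d, named after their values were seen, were *Pold4*, the small subunit of polymerase delta (4.89 to 7.97 FPKM, log2 change 0.59, limma, adjusted p = 0.0102), *Tk2*, the mitochondrial thymidine kinase (3.19 to 5.20 FPKM, 0.56, adjusted p = 0.0123) and *Kat7*, a histone acetyltransferase (25.2 to 35.2 FPKM, 0.47, adjusted p = 0.000364). The number of these calls was 1 with *Xist* as a covariate, 1 without the 3 hearts with lung markers and 0 without the 4 hearts with *Xist* (1 at an unadjusted p under 0.05). The values of *Pold4* are repeated under another identifier.

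The E2F genes and the mitosis genes give the cell cycle context. Of 8 E2F genes, 6 were lower at P1d and the other 2 had no call, and 4 rose from P1d to P7d (limma). *E2f1*, an activator at S phase entry, was at 7.71, 1.55 and 4.51 FPKM at E18.5d, P1d and P7d, and *E2f8*, a repressor, at 11.3, 2.27 and 4.46 FPKM. All 30 mitosis genes were lower at P1d (median log2 change -1.59), 26 rose from P1d to P7d (0.64) and all 30 stayed below E18.5d at P7d (-1.0). The largest changes at P1d were those of *Top2a* (log2 change -2.35), *Bub1* (-2.22), *Aurka* (-1.96) and *Nuf2* (-1.95). For the 45 replication genes, the medians were -1.23, 0.63 and -0.64 in the same order, and the difference between the lists was not tested.

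Other cell types changed as well between the stages, and their part in the results was not tested. At P1d against E18.5d, 5 of 7 macrophage markers were higher (limma), with summed levels of 63.4 to 81.8 FPKM at E18.5d, 95.1 to 131 at P1d and 88.4 to 96.7 at P7d. All 4 of 8 neutrophil and myeloid precursor markers that passed the filter were higher at P1d, with sums of 6.45 to 11.8, 47.9 to 69.9 and 15.1 to 19.6 FPKM, and 2 of the 8 (*Elane* and *Prtn3*) were under 0.5 FPKM in every heart. The 10 erythroid markers summed to 8467 to 22809, 12766 to 24746 and 8655 to 10512 FPKM, with 1 of 8 tested higher and 1 lower at P1d, and sums of E18.5d and P1d overlapped. *Klf1*, a defining factor of red cell precursors, was under 0.5 FPKM in every heart. Sums of the 7 endothelial markers were 413 to 447, 489 to 533 and 543 to 562 FPKM (3 higher and 1 lower at P1d), and those of the 7 fibroblast markers 1988 to 2091, 1679 to 2225 and 2670 to 2755 FPKM (3 lower at P1d, and 4 higher from P1d to P7d). For the 6 smooth muscle and pericyte markers they were 758 to 938, 782 to 872 and 713 to 820 FPKM, with 1 higher and 1 lower at P1d. The 6 brown fat markers summed to 25.03 to 27.6, 41.4 to 48.2 and 50.6 to 56.7 FPKM, with 3 higher at P1d. The 10 thymocyte markers, of cells that divide in neonatal mice, summed to at most 1.62 FPKM in any heart and 8 of them were under 0.5 FPKM in all hearts. Of the 10 cardiomyocyte markers, 5 were higher and 1 lower at P1d.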

How the data were processed

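RNA was sequenced from 9 whole mouse hearts, 3 each from E18.5d, P1d and P7d, which the sample labels call biological replicates and which were grouped by these labels. The authors deposited FPKM values in 1 table. The submitters' processing notes name STAR and the builds GRCm38 and mm10, and the counting tool, versions and annotation are not given in the sources used here. The library kit does not mark strand, so reads of overlapping antisense genes cannot be told apart. Positions and overlaps were taken from GENCODE M21 of GRCm38.
The 45 members were found by symbol. The members, the lists and the tests were chosen with earlier results of these data known. Values were transformed to log2(FPKM + 1), which understates the change of low genes. Genes whose mean over the hearts reached 1 FPKM, 13618 in number, entered limma 3.58.1 under R 4.3.3 (eBayes with trend), all hearts in 1 fit without covariates, with Benjamini-Hochberg adjustment over all genes and a threshold of 0.05. The fit was tested on simulated data. Named with values in every heart were the 2 members of each group with the largest change at P1d (1 in chromatin assembly), the 3 with the largest rise to P7d, the MCM subunits, any member higher than at E18.5d (0 were found) and the member nearest to 0 at P1d. Of other lists at most 4 genes were named.
Depth was estimated from the steps of low FPKM values, of which 82.4% to 86.5% were whole multiples within 0.15, against 30% by chance. The p-values rest on the spread between the 3 hearts within each stage, taken as 1 estimate per gene over all stages. For the average of the members the SD was 0.20 at P1d and 0.07 at E18.5d and P7d. The spread at P1d thus also enters the p-values of P7d against E18.5d. The alternatives were other pseudocounts, filters, scalings and models, leaving out hearts, and, added after seeing the data, leaving out the hearts with lung markers. Figures were drawn with matplotlib 3.10.9.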

Additional observations from a re-analysis of the deposited data

How the results depend on the processing

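No member changed direction in a comparison in which it was called. Of 2949 values of single genes under the alternatives, 2671 kept their direction and their side of the threshold, 232 lost the call, 35 gained it and 11 changed sign. The 11 were uncalled changes from P1d to P7d: *Orc1* (-0.0336 to 0.265 as each heart was left out, negative in 3 cases, and -0.0152 without the 3 hearts with lung markers), *Dbf4* (-0.00993 to 0.229, negative in 2, and -0.00993), *Rpa3* (-0.00294 to 0.125, negative in 1, and -0.00294), and *Orc6* (-0.0875) and *Rfc5* (-0.0266) without the 4 hearts with *Xist*. Calls lost under other scalings, filters or models were 2 of 44 at P1d (*Orc1* and *Rfc3*), 4 of 32 from P1d to P7d (*Chaf1b*, *Gins3*, *Gins4* and *Rfc4*) and 13 of 41 at P7d against E18.5d (*Cdc45*, *Cdc6*, *Cdt1*, *Chaf1b*, *Fen1*, *Gins4*, *Mcm2*, *Pola2*, *Pole2*, *Rfc2*, *Rfc5*, *Rpa1* and *Rpa2*). Without the 4 hearts with *Xist*, 22 members were lower at P1d, 0 rose from P1d to P7d, 0 fell, 0 were below E18.5d at P7d and 0 met all 3 criteria (42, 20, 0 and 22 of the first 4 at an unadjusted p under 0.05). Without the 3 hearts with lung markers these counts were 39, 27, 0, 18 and 9. E18.5d is left with 1 heart in both cases, which is assumed to vary like the others. The 1 member that fell from P1d to P7d (*Gins4*) was 0 members under each scaling, with only the 2 stages fitted, with *Xist* as a covariate, with the replicate block and with an absolute log2 change of at least 0.5. Leaving out each heart in turn gave 42 to 44 members lower at P1d, 30 to 34 that rose and 0 to 1 that fell from P1d to P7d, 34 to 44 below E18.5d at P7d and 22 to 33 that met all 3 criteria. With an absolute log2 change of at least 0.5, 20 members met them. Deviations from the stage means were weakly correlated between same-numbered hearts (-0.0546 to 0.112, 1 of 9 over 0.1). With 3 hearts per stage these correlations cannot show whether the hearts were paired. The fit with the replicate block gave 44 lower at P1d, 32 that rose, 42 lower at P7d and 30 that met all 3 criteria. At this depth at least 42 fragments stood behind each value of a member.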
